A study of Schizosaccharomyces pombe with 2 samples.

Results

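The genes described are the 129 cytoplasmic ribosomal protein (RP) genes of the fission yeast Schizosaccharomyces pombe, 74 for the large (60S) and 55 for the small (40S) subunit, of 5113 protein-coding genes on chromosomes I, II and III. They were chosen by a rule on the RefSeq annotation alone. The symbol had the form rpl or rps and a number, and the product was named as a 40S or 60S ribosomal protein. The rule used no measured value, but earlier results of these data were known when the members were chosen. Long-read cDNA sequencing (Iso-Seq) had been collapsed to transcript models, each a set of exon positions on 1 strand with no read count. The pool library combined wild-type cells with cells that lacked the CHD1-type chromatin remodellers (hrp1del::kanMX with hrp3del), and both strains contributed untreated cells and cells given 14 mM caffeine or 200 ng/ml clotrimazole. The WT library held untreated wild-type cells. All strains were h+ and carried ade6-M216, ura4-D18 and leu1-32, and all were grown at 32 °C in rich YES medium to mid-log phase.

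Cytoplasmic ribosomes are built from ribosomal RNA and a single copy of most RP proteins, so the RP genes are transcribed at high and closely matched rates in growing yeast. Most fission yeast RP proteins are encoded by a pair of paralogous genes, and many RP promoters carry the HomolD box, a short element that stands in for a TATA box, or its companion HomolE. Ribosomal protein transcripts of yeasts are known for short leaders.

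There was 1 library per group, so no replicate error could be estimated and no test between the groups was made. Intervals are exact 95% Clopper-Pearson intervals for shares and order-statistic intervals for medians over genes, and they cover counting error or the spread between genes only. The pool library held 69823 models on the 3 chromosomes and the WT library 26057. The shortest model was 178 nt in the pool library and 428 nt in the WT library, and the 1st percentile was 622 nt and 761 nt. The median annotated mRNA of the RP genes was 620 nt, so models as short as that were rare in both libraries. The part of model length in the model numbers, UTR lengths and retained introns of short genes was not tested. The study describes separate sequencing runs, with the WT library alone in the first, so run, depth, genotype and treatment cannot be told apart between the libraries. Of the deleted genes, hrp3 had 8 same-strand models in the pool library, of which 3 skipped more than 50% of its coding span, against 0 of 5 in the WT library. The other, hrp1, had 7 pool and 5 WT models and none with such a gap, so its models did not show the deletion.

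The promoter letters that RP genes share are shown first, since the rule did not use them. In the window from 250 bases before to 50 bases after the annotated start, HomolD (CAGTCACA, either strand) was found in 82 of 129 RP genes (63.6%, interval 54.6 to 71.9%), against 55 of 4984 other protein-coding genes (1.10%), and over all 5113 promoters the share was 2.68%. HomolE (ACCCTACC, either strand) was found in 40 RP genes (31.0%), against 43 other genes (0.863%), with 1.62% over all promoters. Both elements stood in 23 RP promoters and neither in 30. The letters TATAAA on the strand of the gene were found in 17.8% of RP promoters, against 30.5% of other promoters. Large and small subunit genes had HomolD at close shares, 64.9% and 61.8%, and HomolE at 25.7% and 38.2%, with overlapping intervals. Neither string holds the other on either strand.

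In the following examples, 30 bases of ASM294v3 are written 5′ to 3′ on the strand of the gene with the HomolD match in capitals. They belong to RP genes named below for their models, introns or antisense models.
rpl1602: ttcaaaaaaagCAGTCACAtctttaacaac
rpl4101: tcttaaaagagCAGTCACAatgtgctatac
rpl2302: agaaaagagagCAGTCACAaaattttgaag
rps2201: gttcgtagacaTGTGACTGctttttttgag
rps2202: tagggtttttaTGTGACTGctcctgtagat
The rpl1602 stretch lies at I:4097266-4097295 on the + strand, that of rpl4101 at I:5402275-5402304 on the − strand and that of rpl2302 at III:1311544-1311573 on the + strand. Both rps22 paralogues, which encode uS8 of the small subunit, carried the element on the opposite strand, at I:1162696-1162725 for rps2201 and at I:1512422-1512451 for rps2202.

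The start sites of the models placed the element. Measured from the commonest start of each gene, 69 of 71 HomolD matches in the pool library began between 70 and 40 bases upstream, and 58 of 61 did so in the WT library. The median distance was −50 nt in both libraries (quartiles −56 and −47 nt in each). HomolD lay on the strand of the gene in 47 pool matches and on the opposite strand in 24. These matches came from 68 of the 124 RP genes with a start in the pool library and from 59 of 91 in the WT library. Around the annotated start, too, only 82 of 129 RP genes had HomolD. In addition, a match outside the window of 250 bases before and 50 bases after the commonest start is not counted. The genes rpl1701, rpl1801, rpl1802, rpl3401 and rpl35 had a match in the WT library and none in the pool library, so the narrow range of distances describes only starts with a match in the window. HomolE began farther upstream, at a median of −70 nt in both libraries. The commonest start was a purine directly after a pyrimidine in 93.5% of 124 RP genes in the pool library and in 97.8% of 91 in the WT library. Other genes of similar length had that pair at 97.1% and 96.9% of starts, values within the RP intervals (87.7 to 97.2% and 92.3 to 99.7%).

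**Figure D1:**
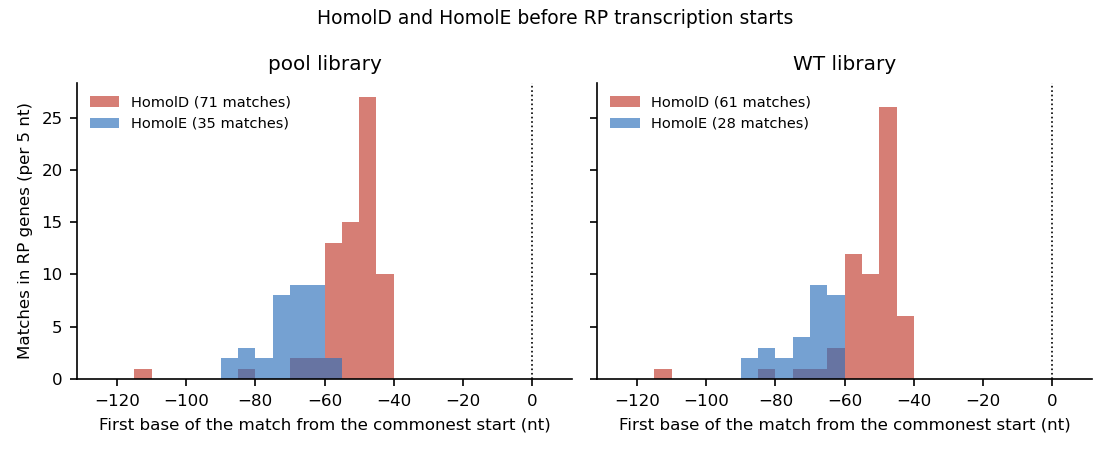
Distance in nt of the first base of each HomolD (red) and HomolE (blue) match from the commonest model start of its RP gene, in bins of 5 nt, for the pool library (left) and the WT library (right). HomolD matches pile up around −50 nt and HomolE matches around −70 nt in both libraries, and the dotted line marks the start itself.

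RP genes had fewer models at the median than other genes of similar coding length, and as many at the median as genes in a similar range of annotated mRNA length. Same-strand models, each given to the coding gene whose exons it overlapped most, numbered 706 over the RP genes in the pool library and 231 in the WT library. The median RP gene had 5 models in the pool library (quartiles 2 and 7, highest 29) and 1 in the WT library (quartiles 0 and 2, highest 14). The 1268 other genes with a coding length from 266 to 762 nt, which are the 10th and 90th percentiles of the RP genes, had medians of 7 and 2 models. Their annotated mRNAs were longer, with a median of 924 nt against 620 nt in RP genes. Among 454 other genes chosen by annotated mRNA length instead, a choice made after the data were seen, the medians were 5 in the pool library and 1 in the WT library. Their median annotated mRNA was 765 nt, still longer than the 620 nt of RP genes. Large and small subunit genes had medians of 4.5 and 6 models in the pool library and of 1 and 1 in the WT library.

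Within bins of annotated mRNA length the order of the sets changed with length. Up to 449 nt the 22 RP genes had a median of 2 pool models, against 3.5 in 28 other genes. At 600 to 749 nt the 28 RP genes had medians of 6 pool and 2 WT models, against 4 and 1 in 124 other genes. At 450 to 599 nt the medians in the pool library were 3 in 39 RP genes and 3 in 69 other genes, at 750 to 899 nt they were 6 and 6, and at 900 to 1499 nt they were 8 and 9. In the WT library the RP genes without a model were short ones. No same-strand model was found for 4 RP genes in the pool library (3.1%, interval 0.851 to 7.75%), where 2.56% of all protein-coding genes had none, and for 37 in the WT library (28.7%, interval 21.1 to 37.3%), where 11.7% had none. The 37 genes had a median annotated mRNA of 428 nt (233 to 687 nt), and the 92 RP genes with a WT model one of 694 nt. Of the RP genes up to 449 nt, 21 of 22 had no WT model, as did 23 of 28 other genes of that length. At 450 to 599 nt, 14 of 39 RP genes and 48 of 69 other genes had none. A gene without a model is not shown to be unexpressed. The shortest model of any gene was 178 nt in the pool library and 428 nt in the WT library. The part of molecule length and depth in the missing models was not tested.

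**Figure D2:**
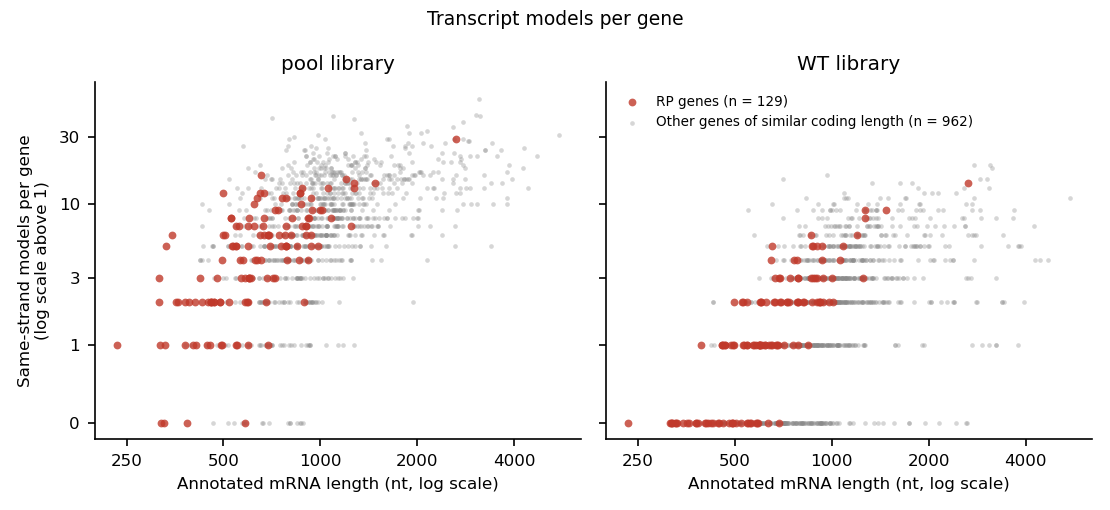
Same-strand models per gene against annotated mRNA length in nt (both on log scales, with 0 shown at the foot), for the pool library (left) and the WT library (right). Red points are the 129 RP genes and grey points the other genes of similar coding length with both UTRs annotated. The 37 RP genes at 0 in the WT panel lie between 233 and 687 nt.

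The 4 genes with no pool model had none in the WT library either. They were rpl4301 (SPBC800.04c), which encodes eL43 of the large subunit, and rps1401 (SPAC3H5.05c), rps2502 (SPAC694.05c) and rps3002 (SPBC19G7.03c), which encode uS11, eS25 and eS30 of the small subunit. Each has a paralogue that was seen in the pool library: rpl4302 had 2 models, rps1402 4, rps2501 3 and rps3001 2. In the WT library rps1402 and rps3001 had 1 model each, and rpl4302 and rps2501 had 0.

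Most models spanned the complete coding sequence. The share was 94.6% of RP models in the pool library (interval 92.7 to 96.2%) and 97.8% in the WT library, against 92.1% and 97.3% in the other genes of similar coding length. A start inside the coding sequence was seen in 16 pool models and 1 WT model of RP genes, which is 2.27% and 0.433%, against 5.69% and 2.26% of models of the other genes. Because the models had been collapsed so that a shorter 5′ end was joined to a longer model with the same exons, starts inside a longer model are not counted, and starts less than 100 nt apart may have been joined.

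RP leaders were short. The 5′ UTR, taken as the spliced length before the start codon and summarised as a median per gene, had a median of 23 nt over 124 RP genes in the pool library (interval 20 to 27 nt, range 2 to 1769 nt) and of 21 nt over 91 in the WT library (interval 18 to 23 nt, range 7 to 851 nt). The other genes of similar coding length had medians of 112 nt and 107 nt. A leader of at most 50 nt was found in 103 of 124 RP genes in the pool library (83.1%) and in 83 of 91 in the WT library (91.2%), against 26.8% and 26.2% of the other genes. Large subunit genes had medians of 26.5 nt in the pool library and 23 nt in the WT library, and small subunit genes 21 nt and 17.5 nt.

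The shortest leaders in the pool library belonged to rps102, for eS1 of the small subunit, and rpl39, for a small protein of the large subunit that lines the exit tunnel for the growing chain. The 8 pool models of rps102 (SPAC22H12.04c; I:898045-898962, − strand) had leaders of 1 to 13 nt with a median of 2 nt, and its 2 WT models had leaders of 1 and 13 nt. The only pool model of rpl39 (SPCC663.04; III:1641016-1641395, + strand) had a leader of 5 nt, and it had no WT model. The 20 bases around the commonest start in the pool library are printed with the first transcribed base in capitals, so that the start codon can be read just after it.
rps102: acttctccacAatggcagtt
rpl39: tctgtcttccAcaaaatgcc
Start positions agreed closely between the libraries. Of 225 complete WT models of RP genes, 216 (96.0%, interval 92.5 to 98.2%) had a pool model starting within 10 nt, against 92.9% in the other genes. Of the same 225 models, 180 (80.0%, interval 74.2 to 85.0%) had a pool model ending within 10 nt, against 87.2% in the other genes (interval 86.0 to 88.4%). Any pool model of the gene could give the match, and the other genes had a median of 7 pool models against 5 in RP genes. The part of model number in these shares was not tested.

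A median 5′ UTR over 300 nt was found in 14 RP genes in the pool library (11.3%) and in 4 of 91 in the WT library (4.40%), against 19% and 15.6% of the other genes of similar coding length. For 10 of the 14 this rested on 1 or 2 models. Few models in either library were as short as the annotated mRNA of the median RP gene, and the part of that in the long leaders was not tested. The longest was in rpl35, which encodes uL29 of the large subunit: its 2 pool models had leaders of 1763 and 1775 nt and its only WT model one of 19 nt. The pool models of rpl35 (SPCC613.05c; III:88826-89576, − strand) ran over the coding sequence of rpl902, the RP gene that lies head to head with it at a distance of 222 nt between coding sequences. The next was rpl3401 (SPAC23A1.08c; I:4093344-4093798, − strand), for eL34, whose only pool model had a leader of 1021 nt that crossed the opposite-strand gene rbm8 and whose only WT model had one of 31 nt. In 12 of the 14 genes the upstream neighbour lies on the opposite strand, as in 69 of the 129 RP genes, and in 9 a pool model ran over opposite-strand coding sequence. In 6 of the 14 another pool model of the same gene had a leader of at most 50 nt. The long leader was seen in both libraries for rpl2801 (638 nt in each), rpl3702 (a median of 721 nt in the pool library and 591 nt in the WT library) and rps2601 (685 nt and 851 nt).

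RP 3′ UTRs were also short. The median per gene was 118 nt in the pool library (interval 97 to 137 nt, range 26 to 1807 nt) and 77 nt in the WT library (interval 64 to 111 nt, range 27 to 2011 nt), against 311 nt and 338 nt in the other genes of similar coding length. At most 100 nt was found in 45.2% of RP genes in the pool library and 57.1% in the WT library, against 8.25% and 8.85% of other genes. Of the 91 RP genes with a 3′ UTR in both libraries, 68 had the longer median in the pool library, 17 in the WT library and 6 were equal, with a median difference of 28 nt. Among the 58 with at least 2 usable WT models the counts were 42 and 14, with a median of 23.25 nt. Of the 873 other genes, 376 were longer in the pool library and 416 in the WT library, with a median difference of 0 nt. The shortest 3′ UTR of an RP gene differed little between the libraries (median difference −4 nt), while the longest was longer in the pool library by a median of 133 nt. In the other genes the median differences were −64 nt for the shortest and 70 nt for the longest. The pool library had more models per gene, and the part of that in these differences was not tested.

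Ends varied widely within a gene. In the 65 RP genes with at least 5 usable pool models, the models ended at a median of 5 separate places (over 20 nt apart) and began at a median of 2, and the 3′ UTR spanned a median of 454 nt within a gene. The 777 other genes with at least 5 usable pool models had medians of 7 ends and 2 starts and a span of 512 nt. The sets were not matched for model number. Over all genes of each set the median was 7 pool models in the other genes and 5 in RP genes. The part of model number in the numbers of ends was not tested. Since the collapse joined starts up to 100 nt apart and shorter 5′ ends, the numbers of starts and of ends are not comparable with each other. The poly(A) signal AATAAA stood within 40 nt before 14.9% of 612 distinct RP ends in the pool library and 21.3% of 221 in the WT library, against 12.0% and 13.8% for the other genes.

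**Figure D3:**
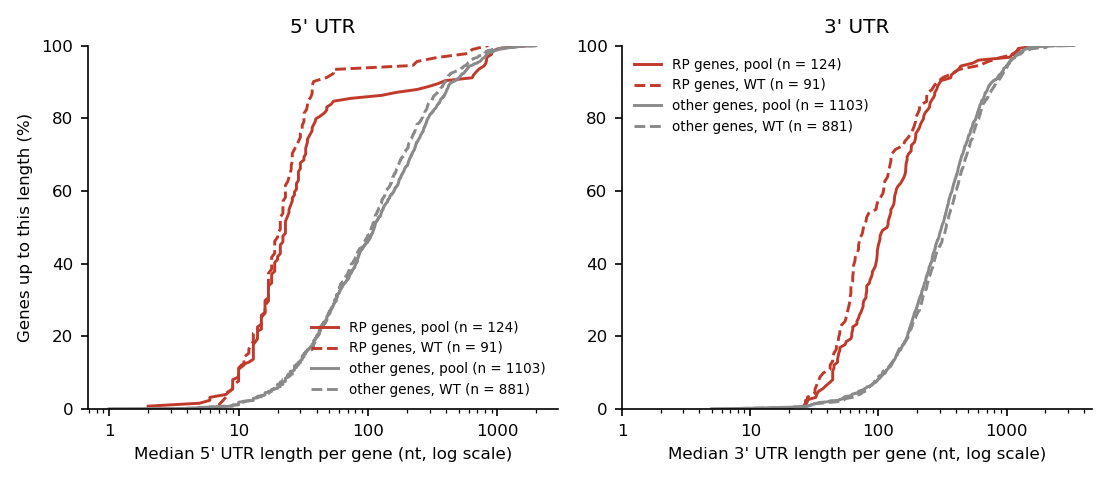
Cumulative share of genes (%) by median 5′ UTR (left) and median 3′ UTR (right) in nt on a log scale. Red lines are RP genes and grey lines other genes of similar coding length, solid for the pool library and dashed for the WT library. The red 5′ UTR curves climb steeply around medians of 23 nt and 21 nt, and 14 RP genes in the pool library and 4 in the WT library lie beyond 300 nt.

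Most RP genes that are split have a single intron. The annotation gives 77 introns, with 62 genes holding none, 58 genes 1, 8 genes 2 and 1 gene 3. RP introns had a median length of 75 nt (38 to 291 nt), against 62 nt in the other genes, and 34 of 77 were at least 100 nt long. The first coding exon was often very short: 18 RP introns (23.4%) began within 30 nt of the start codon, against 109 of 1318 introns (8.27%) in the other genes. The donor letters GTATGT opened 23 of the 77 RP introns (29.9%), against 21.4% in the other genes.

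An intron was called retained in a model that covered it with at least 10 nt on both sides and read through it in 1 exon. By that measure 86 of 339 covering models of RP introns retained the intron in the pool library (25.4%, interval 20.8 to 30.4%) and 13 of 83 in the WT library (15.7%, interval 8.61 to 25.3%). In the other genes of similar coding length the shares were 23.1% (interval 22.4 to 23.8%) and 12.4% (interval 11.4 to 13.5%), within the RP intervals. At least 1 retaining model was seen for 42 of 72 covered RP introns in the pool library (58.3%), where 73.4% of covered introns of all protein-coding genes had one, and for 11 of 35 in the WT library (31.4%), where 34.4% had one. The 77 RP introns had 339 covering models in the pool library, against 14646 over 1318 introns of the other genes, so single introns were seen less deeply. These are shares of distinct models, not of RNA molecules.

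Taken over all covering models, long RP introns were retained in a larger share than short ones. In the pool library introns of at least 100 nt were retained in 55 of 176 covering models (31.2%, interval 24.5 to 38.7%) and shorter ones in 31 of 163 (19%, interval 13.3 to 25.9%). In the WT library the counts were 11 of 40 (27.5%, interval 14.6 to 43.9%) and 2 of 43 (4.65%, interval 0.568 to 15.8%). The intervals overlapped in both libraries, and models of 1 gene are not independent. Among the short introns rpl1603 alone gave 27 covering models in the pool library (2 retained) and 13 in the WT library (0 retained). Among the long ones the 5′ UTR intron of rps2202 gave 16 (8 retained) and 5 (2 retained). The part of these genes in the difference was not tested. The other genes had 26.7% for long and 21.7% for short introns in the pool library, and 14.8% and 11.5% in the WT library. Introns within 30 nt of the start codon were retained in 15 of 77 covering models in the pool library (19.5%) and all others in 71 of 262 (27.1%), with overlapping intervals. The collapse allowed 100 nt of difference at 5′ ends and at splice junctions, and its part in the shares by length and place was not tested. A retained intron also makes a model longer, and models as short as the median RP mRNA were rare in both libraries. The part of model length in these shares was not tested either.

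The RP introns retained in the largest share of at least 5 covering pool models were those of rpl2302, rps2202 and rpl2501. The 265-nt intron of rpl2302 (III:1311824-1312088), for uL14 at the interface of the subunits, was retained in 3 of 6 pool models (50%) and in its only WT model. The 147-nt intron of rps2202 (I:1512199-1512345) lies in the 5′ UTR, and it was retained in 8 of 16 pool models (50%, interval 24.7 to 75.3%) and in 2 of 5 WT models (40%). It set the leader of rps2202, which ranged from 45 to 201 nt in pool models and from 54 to 201 nt in WT models, the only RP leader with an annotated intron. The 240-nt intron of rpl2501 (II:413654-413893), for uL23 near the mouth of the exit tunnel, was retained in 4 of 9 pool models (44.4%) and 1 of 2 WT models. The intron of its paralogue rpl2502 was also retained in 4 of 9 pool models and had no covering WT model. The 58-nt intron of rpl1603 was retained in 2 of 27 pool models (7.41%) and in 0 of 13 WT models.

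Antisense models were found over RP genes in the pool library only, at a share below that of genes of similar length. A model was called antisense to a gene when it overlapped an exon of that gene on the other strand and, on its own strand, no annotated gene other than a long or unclassified non-coding RNA gene. The pool library had such models over 24 of 129 RP genes (18.6%, interval 12.3 to 26.4%), where 55.5% of all protein-coding genes and 37.4% of those of similar coding length (474 of 1268, interval 34.7 to 40.1%) had one. The WT library had them over 0 of 129 RP genes, which by the limit of 3 counts allows a share of up to 2.33% (exact interval up to 2.82%), where 8.41% of all protein-coding genes and 5.05% of those of similar coding length (64 of 1268) had one. The other genes also had the higher share in the pool library, and in both sets genotype, treatment, run and depth cannot be told apart.

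The RP share was the lower in each of the 5 bins of annotated mRNA length in the pool library. It was 13.6% in RP genes and 21.4% in other genes up to 449 nt, 20.5% and 26.1% at 450 to 599 nt, 10.7% and 34.7% at 600 to 749 nt, 31.6% and 37.0% at 750 to 899 nt, and 20% and 49.1% at 900 to 1499 nt. The intervals overlapped in all bins but the longest (5.73 to 43.7% in RP genes and 46.1 to 52.0% in other genes). That bin matches length least closely, with a median mRNA of 960.5 nt in RP genes and 1221 nt in other genes. The share in other genes rose with length from bin to bin. The RP share depends on what counts as antisense. Of the 38 models 35 overlapped a non-coding RNA gene that is annotated on their strand, and with such models set aside 2 of 129 RP genes were left in the pool library (1.55%). That share is not given here for other genes, so 1.55% cannot be set against their shares above. With models that belong to a neighbouring gene on their own strand counted as well, 69 RP genes (53.5%) had an opposite-strand model in the pool library and 24 (18.6%) in the WT library, against 79.8% and 45.8% of the other genes of similar coding length.

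**Figure D4:**
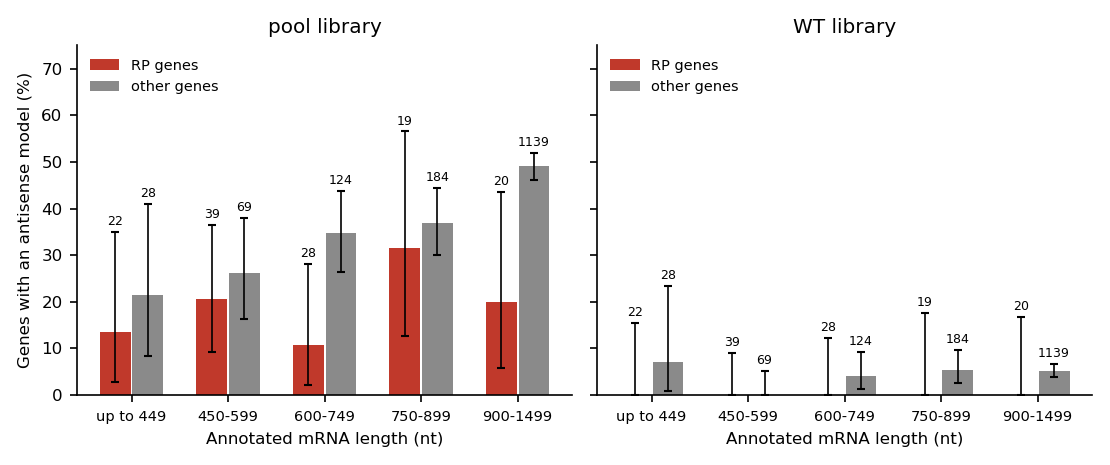
Share of genes (%) with an antisense model by annotated mRNA length in nt, for RP genes (red) and other genes with both UTRs annotated (grey), in the pool library (left) and the WT library (right). Bars are shares, lines exact 95% Clopper-Pearson intervals, and the number over each is its genes. RP genes are below the other genes in every pool bin and at 0 in every WT bin.

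Of the 38 antisense models 35 had a single exon, and their lengths ran from 653 to 1970 nt with a median of 1279 nt. The start lay outside the RP gene for 31 models, inside its coding sequence for 5 and elsewhere in the gene for 2. In 13 of the 24 genes a model covered the whole coding sequence, among them rpl1002, rpl1502, rpl1801, rpl3602, rpl3703, rpl3802, rpl501, rpl803, rps1802, rps2201, rps2601 and rps7. In 4 it covered a part (rpl102, rpl1202, rpl1902 and rpl2302). In the other 7, among them rpl2501, rpl802, rpl902, rps1201, rps21 and rps601, only a UTR was covered. The 24 genes were 15 of the large and 9 of the small subunit, in 20 paralogue families and 2 genes with no paralogue, and in 2 of those families, one of them that of rpl802 and rpl803 (uL2), 2 genes had antisense models. The models not over an annotated non-coding gene were the 2 of rps1201 and the 1 of rps7.

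Among the genes with several antisense models was rps2601 (SPAC806.03c; I:235533-236027, − strand), for eS26 at the mRNA exit channel, with 3 antisense models in the pool library that all started 382 nt past the stop codon. For rpl1002, for uL16 next to the peptidyl transferase centre, and for rpl1801, for eL18, the 2 antisense models each covered the whole coding sequence, starting 606 and 684 nt past the stop codon in rpl1002 and 235 and 786 nt past it in rpl1801. The 2 models over rpl2302 started inside the coding sequence and overlapped 192 of its 420 coding nt. None of these 4 genes had an antisense model in the WT library.

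Paralogues of a family differed in their models and in their 3′ ends. The 129 genes form 53 families of at least 2 genes (50 of 2 and 3 of 3, 109 genes in all) and 20 single genes. Coding sequences within a family were 66.1% to 99.6% identical in a global alignment, with a median of 87.8% for the least alike members of each family. Long reads of the most alike pairs could be placed on either copy, so their models are less certain. The number of models within a family differed by a median of 3 in the pool library and 1 in the WT library, and was equal in 7 and 18 families. A gene without a model beside a paralogue with one was found in 4 families in the pool library and in 12 in the WT library, and 7 more families had no WT model at all. In the 50 families of 2, the gene with more models was the same in both libraries in 24 and the other one in 3, while 23 were tied in at least 1 library. The median 3′ UTR differed within a family by a median of 120 nt over 48 families in the pool library and 90.5 nt over 35 in the WT library. The 5′ UTR differed by 12.5 nt and 11 nt. Both the joining of starts and the short RP leaders limit that 5′ value, so it is not set against the 3′ value. At the 3′ side 28 of the 48 families in the pool library and 17 of the 35 in the WT library differed by over 100 nt.

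**Figure D5:**
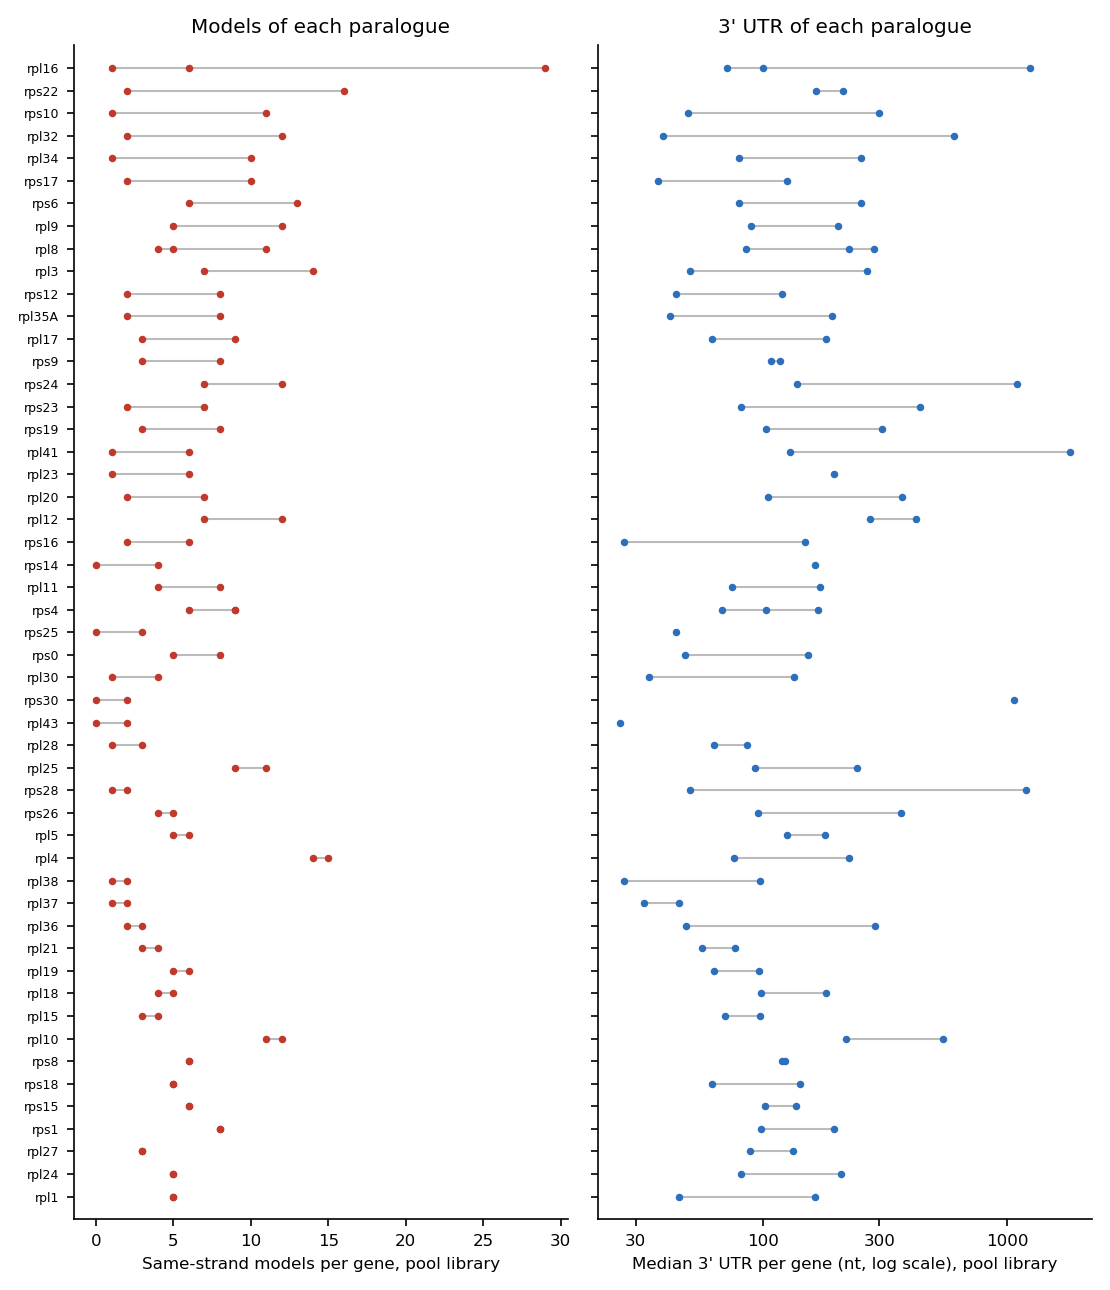
Each line is 1 of 51 of the 53 families of RP paralogues and each point a gene of it, with same-strand models in the pool library (left) and median 3′ UTR in nt on a log scale (right), in order of the difference in models. The rpl16 family at the top spans 1 to 29 models and 71 to 1239 nt, and families of 2 with a single point are equal or have 1 gene with a value.

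The rpl16 family, which encodes uL13 of the large subunit, differed most in models. In the pool library rpl1603 (SPBC2G2.05; II:3443254-3445951, + strand) had 29 models, rpl1602 (SPAC23A1.11; I:4097326-4098123, + strand) 6 and rpl1601 (SPBC839.13c; II:623323-624055, − strand) 1, against 14, 3 and 0 in the WT library. The models of rpl1603 shared a start, with leaders of 13 to 26 nt in both libraries, and spread over 24 ends among 27 complete models in the pool library. Its 3′ UTR ranged from 18 to 2128 nt in the pool library and from 70 to 2128 nt in the WT library, with a median of 1239 nt in each, while that of rpl1602 had medians of 100 nt and 77 nt and that of rpl1601 a single value of 71 nt in the pool library. The annotated mRNA of rpl1603 is also the longest of all RP genes, at 2640 nt.

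The rps22 and rpl32 families followed. In the pool library rps2202 had 16 models and rps2201 2, against 5 and 1 in the WT library, and among these 2 genes only rps2202 has the 5′ UTR intron. For eL32 of the large subunit, rpl3202 had 12 models and rpl3201 2 in the pool library, against 4 and 0 in the WT library, and the rps10 family had the same difference of 10 in the pool library. The 15 pool models of rpl402, for uL4, which reaches into the exit tunnel, were the third highest count of an RP gene. Its paralogue rpl401 had 14, and the WT counts were 6 and 8.

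In 3′ UTR length the rpl41 family differed most. It encodes eL41, a very short peptide at the interface of the subunits, from 78 coding nt. The median 3′ UTR in the pool library was 1807 nt in 6 models of rpl4101 (197 to 2340 nt; SPAC3G6.13c; I:5401849-5402246, − strand) and 129 nt in the only model of rpl4102 (SPAC3F10.18c). After it came rpl16 and then rps28, for eS28 at the mRNA exit channel, where the only pool model of rps2802 had a 3′ UTR of 1195 nt and the 2 of rps2801 a median of 50 nt. Neither the rpl41 nor the rps28 genes had a WT model. Their annotated mRNAs are 233 to 412 nt, below the 1st percentile of pool models (622 nt). The part of model length in these 3′ UTRs was not tested.

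Other genes of the translation machinery were set beside the RP genes. The list of stalk proteins by symbol (rpp and a number) holds 10 genes, of which 3 are subunits of RNase P or RNase MRP by their product. The 7 that encode P0, P1 or P2 proteins had a median leader of 31 nt in the pool library and no antisense model in either library. In the WT library only 3 of them had a leader value (51.5 to 584.5 nt, median 57 nt). Of the 7 elongation factor genes 0 had an antisense model in either library, and their leaders had a median of 34 nt in both. HomolD stood in 4 of the 7 stalk and 4 of the 7 elongation factor promoters, and with 7 genes a list a count of 0 allows a share of up to 42.9%. The 78 mitochondrial ribosomal protein genes had HomolD in 0 promoters, which allows a share of up to 3.85%, and leaders with a median of 110 nt in the pool library and 107 nt in the WT library. An antisense model lay over 26 of them in the pool library (33.3%, interval 23.1 to 44.9%) and over 1 in the WT library (1.28%). In leader length and antisense share the mitochondrial list was near the other genes of similar coding length, while the elongation factor list, and in the pool library the stalk list, had shorter median leaders than those genes. Median 3′ UTRs were 82 nt (pool) and 91 nt (WT) in the elongation factor list, so short 3′ UTRs were not particular to RP genes. They were 157 nt and 54 nt in the 7 stalk genes, the WT value over 3 genes, and 342 nt and 333 nt in the mitochondrial list.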

How the data were processed

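Full-length cDNA from total RNA of the 2 libraries was sequenced on a PacBio instrument. According to the study's methods the authors clustered the reads with Iso-Seq, aligned them with minimap2 in its spliced mode and collapsed them with TAMA Collapse, allowing 100 nt of difference at 5′ ends and at splice junctions and joining models that were shorter only at the 5′ end. The deposited tables give exon positions, and the deposited score column holds 40 for each model, so no read count or level was used. The submitters' processing notes name ASM294v2. Positions here were read on the RefSeq assembly ASM294v3, after checking that all models lay within the chromosomes and that 89.7% of distinct pool introns and 97.2% of WT introns read GT-AG there (0.187% and 0.145% when shifted by 10 nt). Other sequences held 173 pool and 63 WT models, which were left out.

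Each model was given to the same-strand coding gene it overlapped most. UTR lengths used models that held the whole coding sequence and no coding sequence of another gene. Families were formed from symbols, with rpl8 kept apart from rpl801 to rpl803 because its product differs. With 1 library per group there was no test, and 3 counts were taken as the limit behind a count of 0. The genes named are those with most and fewest models in the pool library, most antisense models, most retained introns among at least 5 covering models, largest paralogue differences and longest and shortest leaders, with the deleted hrp1 and hrp3; other genes were named after their values were seen, and some genes that meet the rule are not reported here. The members and lists were chosen with earlier results of these data known. Assignments were tested on simulated models placed only on genes with no other gene close by. The assignment of models between close or overlapping genes was not tested. Python 3.11.15, NumPy 2.4.6, SciPy 1.17.1, Biopython 1.88 and Matplotlib 3.10.9 were used.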

Additional observations from a re-analysis of the deposited data

How the results depend on the processing

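No paired analysis was possible because each group had 1 library. Of 56 alternative values, 37 stayed within the 95% interval of the reported one and 19 moved out of it. For the comparison genes of similar coding length, the median number of models moved from 7 in the pool library to 9 when the range ran from the shortest to the longest RP gene or when any same-strand overlap counted, and to 5 under annotated mRNA length, which was added after seeing the data; in the WT library it moved from 2 to 3, 3 and 1. Their antisense share in the pool library moved from 37.4% to 43.9% over the full range and to 33.3% under annotated mRNA length. Taking the longest model per gene gave RP medians of 39.5 nt for the 5′ UTR and 285.5 nt for the 3′ UTR in the pool library, and paralogue differences in 3′ UTR of 329 nt in the pool library and 145 nt in the WT library. The median over introns gave a retained share of 20% in the pool library and 0% in the WT library. The RP antisense share became 53.5% (pool) and 18.6% (WT) with models on a same-strand gene kept, and 1.55% (pool) with annotated non-coding RNA genes counted as genes of their own. The 1.55% has no value for the comparison genes beside it. HomolD was found in 97.7% of RP promoters with 1 mismatch allowed, against 14.1% of other promoters, and in 42.6% on the strand of the gene only. The pool library held 69823 models and the WT library 26057, and the part of depth in their counts was not tested.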

Other observations

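Some ribosomal components fell outside the rule for the RP genes. The 4 genes that encode ubiquitin fused to a ribosomal protein had 6 (ubi1), 11 (ubi2), 3 (ubi3) and 5 (ubi5) same-strand models in the pool library, against 2, 3, 1 and 3 in the WT library. The scaffold protein gene cpc2, the RACK1 of fission yeast, had 30 pool and 13 WT models, more than rpl1603 in the pool library. The gene rpl44, whose product is named by a domain, had 5 pool and 0 WT models, and rpl701, named as an RNase MRP subunit that resembles L7, had 7 and 2. None of these genes nor rpp0 had an antisense model in either library, where 55.5% (pool) and 8.41% (WT) of all protein-coding genes had one. With so few genes, the count of 0 is a description only.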
